A study of Mus musculus with 166 samples.

Results

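Small RNA of the cerebellum was compared between 10 and 6 months of age in mice that carry 1 wild-type Htt allele and 1 Htt allele with a knock-in of human HTT exon 1, which holds the CAG repeat that is expanded in Huntington's disease. The comparison takes every library at these ages whose mouse belonged to the heterozygous Q20, Q80, Q92 or Q111 line. The lines are named after the CAG repeat of the knock-in allele. All of the libraries compared come from the same library series, as numbered in the library labels. These were 63 of the 166 libraries analysed, 31 at 10 months and 32 at 6 months, with the line as a covariate. There were 8 mice per line and age, except 7 in Q111 at 10 months, of both sexes and on a C57BL/6 background. Each mouse gave 1 library at 1 age, so no animal was followed over time. All of the mice carried a knock-in allele, and the Q20 line, whose repeat is close to the usual human length, is the one the study counts among its controls. 1 library, a Q20 female at 10 months, fell below the outlier threshold that the study used (standardized connectivity -6.46, threshold -5) and was left out, which gave 30 libraries at 10 months and 32 at 6 months.

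A microRNA is cut from a hairpin of its precursor transcript into a short mature strand, which guides Argonaute proteins to messenger RNAs and lowers their stability or translation. The choice of targets rests mainly on bases 2 to 8 of the mature strand, called the seed, so that microRNAs with a common seed are grouped into families. In the cerebellum the bulk of microRNA comes from neurons, above all granule cells, with further contributions from glia, vessels, meninges and choroid plexus. The values are counts per hairpin, given as CPM (counts per 1000000 counts of the tested features, after TMM scaling), and do not separate the 2 arms of a hairpin.

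The sequences below are mature strands of hairpins that were called for age, shown so that the shared seeds can be read. Since counts are per hairpin, which strand differed is not known. Reads of Mir142b and Mir497b cannot be told apart from those of the genes opposite them. For Mir16-2, a hairpin of miR-16, the difference went with a sequencing lane, as given below. The sequences are from RefSeq, build GRCm38.p6, written 5′ to 3′ with the seed (bases 2 to 8) in capitals.
The first set is of strands whose hairpins were higher at 10 months.
miR-146a-5p: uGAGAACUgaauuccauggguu
miR-146b-5p: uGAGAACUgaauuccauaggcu
miR-142b: uCCAUAAAguaggaaacacu
miR-92a-3p: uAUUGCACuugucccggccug
miR-25-3p: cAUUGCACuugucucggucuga
miR-92b-3p: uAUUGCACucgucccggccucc
miR-10a-5p: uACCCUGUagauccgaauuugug
miR-10b-5p: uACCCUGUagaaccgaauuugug
miR-221-3p: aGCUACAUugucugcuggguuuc
miR-222-3p: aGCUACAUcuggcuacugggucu
miR-301a-3p: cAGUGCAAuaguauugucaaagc
miR-153-3p: uUGCAUAGucacaaaagugauc
The second set is of strands whose hairpins were lower at 10 months.
miR-497b: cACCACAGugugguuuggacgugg
miR-195a-5p: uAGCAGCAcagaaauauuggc
miR-15a-5p: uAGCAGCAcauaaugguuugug
miR-16-5p: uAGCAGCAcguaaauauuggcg
let-7b-5p: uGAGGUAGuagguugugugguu
let-7c-5p: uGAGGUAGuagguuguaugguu
let-7d-5p: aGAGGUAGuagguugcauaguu
Of the 369 features tested, 284 had a mature sequence in the RefSeq table.
The pairs miR-146a and miR-146b, miR-10a and miR-10b, and miR-221 and miR-222 each share a seed, and miR-92a shares its seed with miR-25 and miR-92b.
MiR-15a, miR-16 and miR-195a share the seed AGCAGCA, and the 3 let-7 strands the seed GAGGUAG.

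Of 369 features tested, 159 (43.1%) differed between 10 and 6 months at a Benjamini-Hochberg false discovery rate (FDR) under 0.05 in edgeR's quasi-likelihood test, 76 (20.6%) higher and 83 (22.5%) lower at 10 months. Most of these differences were small: the median size among the 159 was 0.172 on the log2 scale, 38 exceeded 1.2-fold, 8 exceeded 1.5-fold and 2 exceeded 2-fold. The median log2 fold change of all features was 0.02. No feature (0%) separated every 10-month library from every 6-month library. FDR values below are from this test over the 369 features, unless another fit, subset of libraries or test is named. Levels are means ± SD over 30 libraries at 10 months and 32 at 6 months unless ranges are given. Differences printed with an FDR are log2 fold changes, 10 over 6 months, except where lanes are compared.

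Total counts ran from 3692475 to 5579440 per library at 10 months (median 4677016) and from 3094703 to 6093394 at 6 months (median 4064989). The 10-month libraries were sequenced in lanes L4 (6 libraries), L5 (16) and L6 (8), and the 6-month libraries in lanes L1 (16) and L8 (16), so that lane and age cannot be told apart. Between lanes L8 and L1, within 6 months, 49 features (13.3%) differed, 23 of which were among the 159 called for age. With the 6-month libraries of either lane used alone, 72 of the 159 were called in both cases (37 higher, 35 lower), and 38 were called in the same direction in each of 19 count-based alternatives to the main fit, which leave out the stricter filter on low levels. Between lanes L4, L5 and L6, within 10 months, 14 features (3.79%) differed, 8 of which were among the 159. With the 10-month libraries of any 1 lane set against all 6-month libraries, 42 of the 159 were called with each of the lanes (19 higher, 23 lower) and 144 had the same sign with each. With scores (mean log2 CPM) of the choroid plexus, Hox-linked hindbrain and miR-200 lists as covariates, 101 features were called (55 higher, 46 lower), 91 of them among the 159. No member of the marker lists was at 0 in all libraries, and apart from that fit the part of the marker levels in the results was not tested. The RNA came from whole tissue, in which fewer cells of a type and less RNA per cell cannot be told apart.

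**Figure D1:**
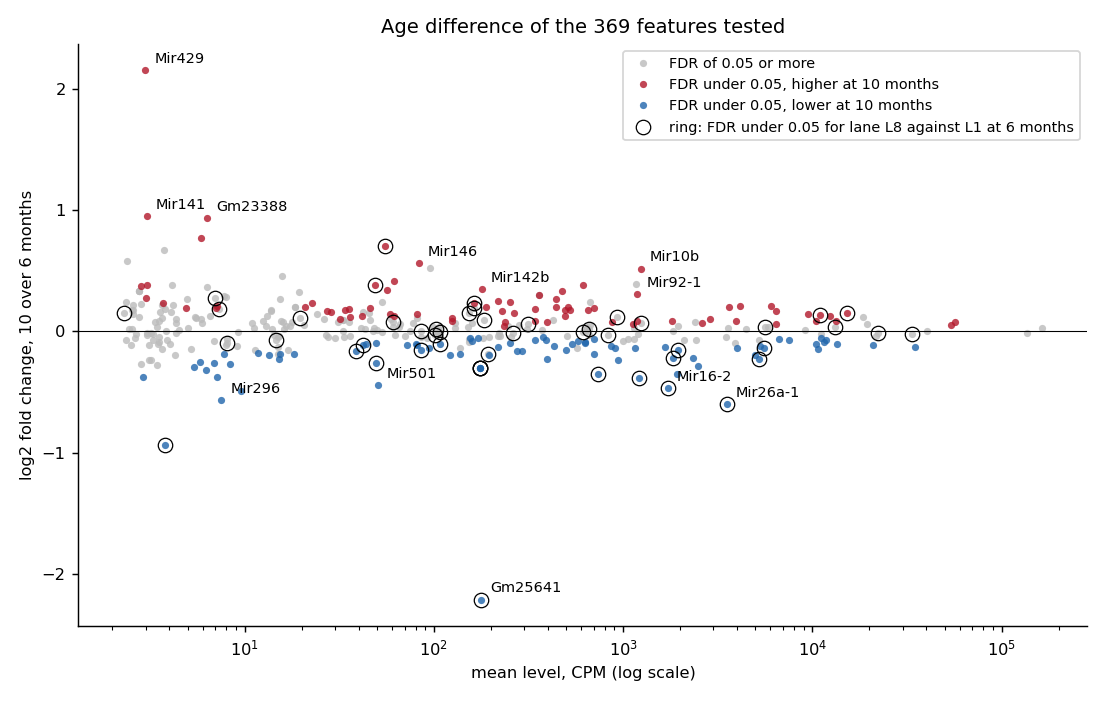
Each point is 1 of the 369 features, with its mean level over the 62 libraries on a log10 axis (CPM) and its log2 fold change, 10 over 6 months, on the vertical axis; red points were called higher (76), blue points lower (83) and grey points not called, and rings mark the features called for lane at 6 months. Most called points lie close to 0, and Mir429 and Gm25641 lie farthest from it.

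MicroRNAs of immune cells moved in both directions. Of 8 tested members of the microglia and immune list, 5 were higher at 10 months (Mir146, Mir142b, Mir146b, Mir155 and Mir21a). 2 were lower (Mir150 and Mir342) and Mir223 was not called, with a list median of 0.15 against 0.02 over all features. The 87.5% called in the list stands beside 43.1% over all features, with 20.6% higher and 22.5% lower. Mir146, Mir142b, Mir150 and Mir342 passed with either 6-month lane used alone, while Mir146b and Mir155 did not pass against lane L1 alone, nor Mir21a against lane L8 alone. Mir146, the hairpin of miR-146a, which is induced by NF-κB and damps Toll-like receptor signalling, had the largest fold change of the list. Its levels were 74.4, 96.6 and 163 CPM (lowest, median, highest) at 10 months, against 53.8, 68.9 and 84.6 CPM at 6 months. 24 of the 30 libraries at 10 months lay above every 6-month library. The means were 99.7 ± 20.1 CPM at 10 months, against 67.7 ± 7.15 CPM at 6 months (log2 fold change 0.56, SE 0.057, FDR 3.73e-12), a fold of 1.47. The hairpin lies at chr11:43374397-43374461, minus strand (GENCODE vM21, GRCm38), outside annotated host genes, and shares a run of 21 bases with Mir146b, so that some reads could belong to either. Mir146b rose by 0.27 (FDR 0.000237) on the log2 scale, with 483 ± 96.2 CPM at 10 months, against 402 ± 54.0 CPM at 6 months.

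Mir142b (chr11:87756841-87756955, minus strand), on the strand opposite the blood-cell microRNA gene Mir142, measured 151, 202 and 242 CPM (lowest, median, highest) at 10 months, against 130.1, 157 and 185 CPM at 6 months. 26 of 30 libraries at 10 months exceeded all of those at 6 months (log2 fold change 0.35, SE 0.035, FDR 3.06e-12). Mir142 itself was not analysed here, and the strand setting of the counting is not given in the sources used here, so that reads of the 2 genes cannot be told apart. Smaller rises were found for Mir155, which promotes inflammatory responses (0.21, FDR 0.00975), and for Mir21a, which is induced in many injured tissues (0.086, FDR 0.000355). Mir155 stood at a few CPM (7.62 ± 1.27 CPM at 10 months, against 6.62 ± 1.30 CPM at 6 months). In contrast, Mir150, a microRNA of mature lymphocytes that targets Myb, fell by 0.24 on the log2 scale, with 760.1, 866 and 979.8 CPM (lowest, median, highest) at 10 months, against 772, 1026 and 1149 CPM at 6 months. All 30 libraries at 10 months lay below the 6-month median of Mir150, and 3 lay below every 6-month library (FDR 2.81e-10). Mir342, in an intron of Evl, averaged 518 ± 37.9 CPM at 10 months, against 558 ± 31.3 CPM at 6 months (log2 fold change -0.11, SE 0.023, FDR 0.000167). The summed level of the 8 list members overlapped widely between the ages, at 3757 to 4336 CPM (median 4069.7) at 10 months, against 3765 to 4275 CPM (median 3950.2) at 6 months.

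The hairpins with the seed AUUGCAC, to which miR-92a belongs, leaned to higher levels: 4 of 6 were called higher and none lower. Mir92-1, the last hairpin of the Mir17-92 cluster, which is known for driving proliferation, is counted in exon sequence of Mir17hg (chr14:115044427-115044506, plus strand). It measured 1131, 1299.6 and 1527 CPM (lowest, median, highest) at 10 months, against 876, 1071 and 1237 CPM at 6 months. The groups overlapped, with 21 of 30 libraries at 10 months above every 6-month library. Its means were 1322 ± 113 CPM at 10 months, against 1066 ± 85.0 CPM at 6 months (log2 fold change 0.31, SE 0.029, FDR 2.33e-13). Mir92-2, the second copy, on chromosome X, rose by 0.34 (FDR 1.58e-08), and shares 22 bases with Mir92-1. Mir92b, another gene of the seed group, averaged 6767 ± 387 CPM at 10 months, against 6040.3 ± 361 CPM at 6 months (log2 fold change 0.17, SE 0.021, FDR 8.6e-10). Mir25 and Mir93, both within Mcm7, rose by 0.18 (FDR 8.43e-07) and 0.18 (FDR 2.59e-09) on the log2 scale. Over the Mir17-92 cluster and its paralogs, 5 of 9 tested members (55.6%) were higher and none lower, with a median of 0.18. Over all features 20.6% were higher. Mir17, Mir20a, Mir106b and Mir363 were not called. Mir17 had 16.1 ± 2.37 CPM at 10 months, against 15.1 ± 2.45 CPM at 6 months (FDR 0.204). 6 further members of the list (Mir106a, Mir18, Mir18b, Mir19a, Mir19b-1 and Mir20b) did not reach the count filter.

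**Figure D2:**
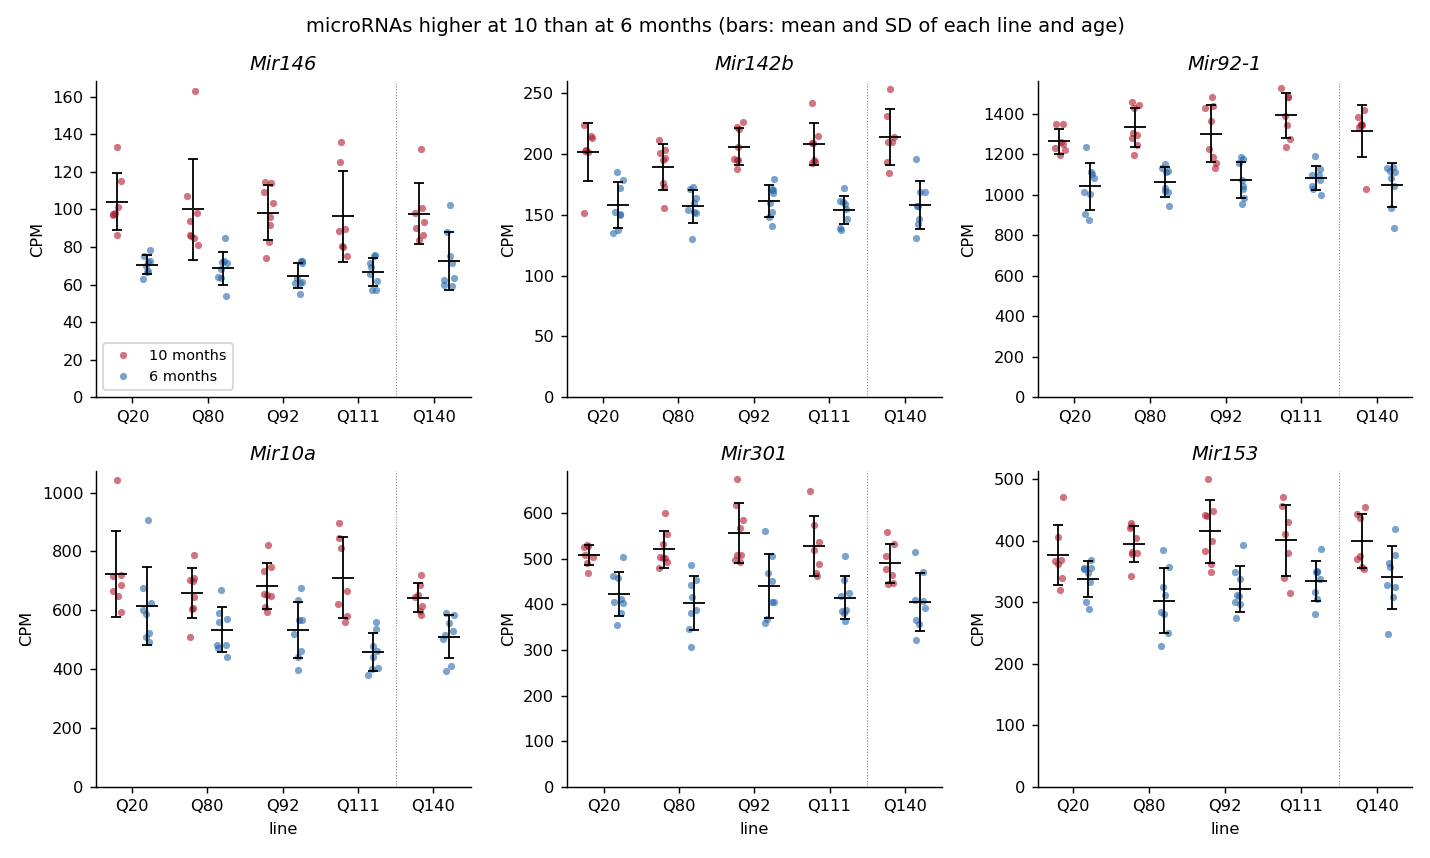
Levels of 6 microRNAs that were higher at 10 months (Mir146, Mir142b, Mir92-1, Mir10a, Mir301 and Mir153), in CPM on linear axes, by line (Q20, Q80, Q92, Q111 and the separately tested Q140); red points left are 10-month libraries, blue points right are 6-month libraries, and bars give the mean and SD. In each panel the 10-month mean lies above the 6-month mean in every line, and the points of the 2 ages overlap. All 6 are from the largest rises, which were taken only from features with the same sign in Q20, Q80, Q92 and Q111.

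Mir10a and Mir10b of the Hox clusters, and Mir429 and Mir141 of the miR-200 family, were higher at 10 months. Mir10a and Mir10b sit in the Hox clusters and follow the expression of their Hox neighbours in the hindbrain and spinal cord. Mir10a measured 508, 664 and 1041 CPM (lowest, median, highest) at 10 months, against 378, 521 and 908 CPM at 6 months. 29 of 30 libraries at 10 months lay above the 6-month median, and 1 above every 6-month library (log2 fold change 0.38, SE 0.061, FDR 5.6e-07). Mir10b, in introns of Hoxd3 and Hoxd4 (chr2:74726070-74726137, plus strand), measured 585, 1465 and 2151 CPM (lowest, median, highest) at 10 months, against 422, 1000.2 and 1763 CPM at 6 months. Its spread was wide at each age, and the difference was 0.52 (FDR 0.00025). With the marker scores as covariates, a fit that uses these same hairpins in the score, Mir10a had 0.15 (FDR 0.0225) and Mir10b 0.26 (FDR 0.00915). Mir615, the other tested member of the Hox-linked list, averaged 2.56 ± 0.765 CPM at 10 months, against 2.68 ± 1.17 CPM at 6 months (FDR 0.779), and Mir196a-1, Mir196a-2 and Mir196b did not reach the filter. The summed level of the 6 list members was 1085, 2136 and 2968 CPM (lowest, median, highest) at 10 months, against 816, 1516 and 2671 CPM at 6 months.

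Mir429 and Mir141, of the miR-200 family that keeps epithelial cells epithelial by repressing Zeb1 and Zeb2, were higher at levels of a few CPM. Mir429 measured 1.23, 3.94 and 16.9 CPM (lowest, median, highest) at 10 months, against 0, 0.682 and 7.79 CPM at 6 months. All 30 libraries at 10 months lay above the 6-month median, and 4 above every 6-month library (log2 fold change 2.15, SE 0.29, FDR 8.77e-09). Mir141 averaged 4.02 ± 2.11 CPM at 10 months, against 2.11 ± 1.91 CPM at 6 months (log2 fold change 0.95, SE 0.21, FDR 0.000214). With marker scores that include the miR-200 list itself, Mir429 had 0.38 (FDR 0.138) and Mir141 -0.40 (FDR 0.155); against lane L8 alone Mir141 had 0.70 (FDR 0.0516). Mir200a, Mir200b and Mir200c did not reach the filter. The summed miR-200 level was 4.65, 13.2 and 39.4 CPM (lowest, median, highest) at 10 months, against 1.84, 4.53 and 22.0 CPM at 6 months. Of the choroid plexus list, 0 of 7 tested members were called in edgeR's test, while 1 (Mir204) had a raw p under 0.05 and DESeq2 called 1; all 7 fold changes were positive (median 0.24), and the summed level was 15374 to 26311 CPM (median 19042) at 10 months, against 13673 to 23521 CPM (median 17576) at 6 months. Mir204, the most abundant of the 7, had 19176 ± 2765 CPM at 10 months, against 17705 ± 2498 CPM at 6 months (log2 fold change 0.12, SE 0.050, FDR 0.0504). It passed the threshold in 9 of 22 alternatives, at 0.17 (FDR 0.022) against lane L8 alone and 0.093 (FDR 0.0382) with the marker scores, but not against lane L1 alone, at 0.067 (FDR 0.425). The sensory Mir183 cluster, known from photoreceptors and hair cells, had 0 of 3 members called by edgeR, while 1 (Mir183) had a raw p under 0.05 and DESeq2 called 1, and its summed level was 429 to 3244 CPM (median 1564) at 10 months, against 452 to 3604 CPM (median 714) at 6 months.

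Mir126a and Mir143 of blood vessels and Mir338 of oligodendrocytes were higher at 10 months. Mir126a, in Egfl7 and known from endothelial cells, measured 5751, 6412 and 7659 CPM (lowest, median, highest) at 10 months, against 4536, 5658 and 6309.8 CPM at 6 months. 20 of 30 libraries at 10 months exceeded every 6-month library (log2 fold change 0.21, SE 0.024, FDR 2.42e-10). Mir143, of smooth muscle, rose by 0.14 (FDR 0.00041), while its cluster partner Mir145a had 193 ± 19.3 CPM at 10 months, against 199 ± 18.9 CPM at 6 months (FDR 0.327). The Mir143 difference was 0.090 (FDR 0.175) with the marker scores as covariates. The vascular list had 2 of 3 members higher and none lower, beside 20.6% higher over all features. Its summed level was 14478 to 19396 CPM (median 16895) at 10 months, against 12539 to 16910.4 CPM (median 14808) at 6 months. Mir338, which lies in an intron of Aatk and promotes oligodendrocyte differentiation, averaged 3894 ± 425 CPM at 10 months, against 3373 ± 272 CPM at 6 months (log2 fold change 0.20, SE 0.032, FDR 2.48e-07). By lane it averaged 4343, 3936 and 3473 CPM in L4, L5 and L6 at 10 months, against 3304 and 3441 CPM in L1 and L8 at 6 months. The difference was 0.12 (FDR 0.0329) with the marker scores, and 0.068 (FDR 0.267) with the L6 libraries alone at 10 months. Mir338 and Mir126a lie opposite Mir3065 and Mir126b, which were not analysed here, and reads of the 2 strands cannot be told apart. The other oligodendrocyte hairpins were not called: Mir219a-2 had a log2 fold change of 0.097 (FDR 0.0542) and Mir219a-1 one of -0.14 (FDR 0.185). The summed oligodendrocyte level was 3610.4 to 5458 CPM (median 4394) at 10 months, against 3274 to 4704 CPM (median 3743) at 6 months. The linked genes Mir221 and Mir222, whose shared seed is shown above and which target Kit and Cdkn1b, rose together, by 0.17 (FDR 2.43e-09) and 0.18 (FDR 1.07e-06). Mir221 measured 500.1 to 629 CPM (median 558) at 10 months, against 436 to 565 CPM (median 492) at 6 months, with all 30 libraries at 10 months above the 6-month median.

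Mir301, in an intron of Ska2 (chr11:87113004-87113089, plus strand), measured 463, 509 and 675 CPM (lowest, median, highest) at 10 months, against 308, 409 and 561 CPM at 6 months. Every library at 10 months lay above the 6-month median of Mir301, but only 7 of 30 lay above the highest 6-month library (log2 fold change 0.33, SE 0.042, FDR 2.61e-09). Of the other tested hairpins with the miR-301a seed, Mir130a was lower, at -0.091 (FDR 0.000406), but did not pass against 6-month lane L8 alone. Mir130b was not called (0.069, FDR 0.299). Mir153, in an intron of Ptprn2, a gene of dense-core vesicles, measured 315, 391 and 499.9 CPM (lowest, median, highest) at 10 months, against 228, 328 and 392 CPM at 6 months, with 15 of 30 above all 6-month libraries (log2 fold change 0.30, SE 0.045, FDR 1.93e-07). Mir384, on chromosome X, shares the miR-30 seed GUAAACA and averaged 749 ± 64.6 CPM at 10 months, against 655 ± 49.0 CPM at 6 months (log2 fold change 0.20, SE 0.030, FDR 1.44e-07). In the miR-30 family itself, 2 of 6 members were higher and 1 lower, with 0.077 (FDR 0.000343) for Mir30a, 0.090 (FDR 0.00401) for Mir30e and -0.12 (FDR 2.87e-05) for Mir30b. Mir30b differed by -0.063 (FDR 0.0766) against 6-month lane L8 alone, and Mir30e by 0.060 (FDR 0.172) against lane L1 alone and by 0.036 (FDR 0.545) with the marker scores; Mir30e also did not pass with lane L5 or L6 alone at 10 months or without the Q92 line. Mir27b, of the Mir23b cluster, measured 14724 to 17696 CPM (median 16194) at 10 months, against 12964 to 16074 CPM (median 14495) at 6 months (log2 fold change 0.15, SE 0.020, FDR 6.84e-09). It was also called for lane at 6 months, with means of 14001.5 CPM in L1 and 15074.7 CPM in L8. Its age difference was 0.19 (FDR 1.6e-08) against lane L1 alone and 0.11 (FDR 0.000712) against lane L8 alone. The Mir23, Mir24 and Mir27 clusters had 2 of 5 members higher and none lower. The miR-29 family, which rises in the maturing brain, had 2 of 4 members higher and none lower. These shares, 40% and 50%, and the 50% called in the miR-30 family, are close to the 43.1% called over all features. Mir29b-2 averaged 242 ± 16.3 CPM at 10 months, against 215 ± 18.9 CPM at 6 months (log2 fold change 0.17, SE 0.029, FDR 1.09e-06), and Mir29a differed by 0.090 (FDR 0.000153), or by 0.054 (FDR 0.0681) against lane L1 alone. Mir3071 measured 3457 to 4995 CPM (median 4544) at 10 months, against 3049.8 to 4598 CPM (median 3870.3) at 6 months (log2 fold change 0.21, SE 0.030, FDR 4.04e-08) and lies opposite Mir136, which was not analysed here.

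Among the microRNAs that were lower at 10 months, Mir497b had the smallest p-value. The miR-15/16 family, with which it is listed, is known to restrain the cell cycle through cyclins and related targets. Of 7 tested members, 5 (71.4%) were lower and none higher, with a median of -0.16. Over all features 22.5% were lower. 3 of the 5 passed with either 6-month lane used alone. Mir16-1 did not pass against lane L1 alone, nor Mir16-2 against lane L8 alone. Mir497b (chr11:70234692-70234816, minus strand) is listed with this family for its place opposite Mir497, in the Mir497 and Mir195a cluster, while its own strand carries another seed. It measured 1494, 1682 and 1995 CPM (lowest, median, highest) at 10 months, against 1628, 2201 and 2546 CPM at 6 months. All 30 libraries at 10 months lay below the 6-month median, and 9 lay below every 6-month library (log2 fold change -0.35, SE 0.029, FDR 7.54e-15). Mir497 was not analysed here, and reads of the 2 strands cannot be told apart. Mir195a, of the same cluster, measured 1658, 2260.1 and 2657 CPM (lowest, median, highest) at 10 months, against 2236, 2727 and 3233 CPM at 6 months, with 13 of 30 below all 6-month libraries (log2 fold change -0.28, SE 0.033, FDR 3.57e-10). Mir15a, in an intron of Dleu2, averaged 469 ± 27.3 CPM at 10 months, against 523 ± 29.2 CPM at 6 months (log2 fold change -0.16, SE 0.022, FDR 1.81e-08), and its neighbour Mir16-1 differed by -0.087 (FDR 0.00727). Mir15b and Mir322 were not called, and Mir503 did not reach the filter. The fall of Mir16-2 went with a lane and is given with the lane values.

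The let-7 family represses growth genes such as Hmga2 and is held down in early development by Lin28. It was lower in 8 of 10 tested members (80%), against 22.5% of all features. No let-7 member was higher, all 10 fold changes were negative, and the median was -0.083. Of all 369 features, 203 had a positive fold change. All 8 passed against lane L1 alone, but 4 of them (Mirlet7a-1, Mirlet7a-2, Mirlet7g and Mirlet7i) did not pass against lane L8 alone. Mirlet7d measured 4126, 4594 and 5105 CPM (lowest, median, highest) at 10 months, against 4586, 5310.1 and 6093 CPM at 6 months. All 30 libraries at 10 months lay below the 6-month median of Mirlet7d, and 15 lay below every 6-month library (log2 fold change -0.20, SE 0.023, FDR 3.57e-10). Mirlet7b averaged 3801 ± 137 CPM at 10 months, against 4192 ± 233 CPM at 6 months (log2 fold change -0.14, SE 0.018, FDR 2.75e-09), and Mirlet7c-1, in an intron of Mir99ahg, 4776 ± 374 CPM at 10 months, against 5592 ± 559 CPM at 6 months (log2 fold change -0.23, SE 0.034, FDR 8.33e-08). Mirlet7c-1 also differed between the 6-month lanes, by -0.21 (FDR 0.00245) for L8 over L1, and its age difference was -0.11 (FDR 0.0219) against lane L8 alone. Mirlet7f-2 and Mir98 were not called, at -0.034 (FDR 0.184) and -0.038 (FDR 0.253). The neighbouring miR-99/100 and miR-125 families had 3 of 6 members lower and none higher. This share, 50%, is close to the 43.1% called over all features. Mir125a averaged 33403 ± 4749 CPM at 10 months, against 36472 ± 2155 CPM at 6 months (log2 fold change -0.13, SE 0.041, FDR 0.0092) and Mir99b, of the same cluster in Spaca6, 10134 ± 1993 CPM at 10 months, against 11226 ± 786 CPM at 6 months (log2 fold change -0.15, SE 0.055, FDR 0.0238); Mir125b-2 differed by -0.067 (FDR 0.0134). Mir125a, Mir99b and Mir125b-2 no longer passed without the Q20 line, with 6-month lane L1 alone or with the marker scores, where they had -0.092 (FDR 0.242), -0.088 (FDR 0.433) and -0.086 (FDR 0.055). Mir125a and Mir99b also did not pass against lane L8 alone. In lanes L4, L5 and L6 at 10 months Mir125a averaged 29402, 33153 and 36904 CPM, against 36302 and 36643 CPM in L1 and L8 at 6 months, and Mir99b 8561, 10032 and 11518 CPM at 10 months, against 11043 and 11409 CPM at 6 months. With the L6 libraries alone at 10 months the signs turned, to 0.019 (FDR 0.721) for Mir125a and 0.035 (FDR 0.532) for Mir99b, while L4 alone gave -0.33 (FDR 9.41e-06) and -0.40 (FDR 9.97e-06).

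**Figure D3:**
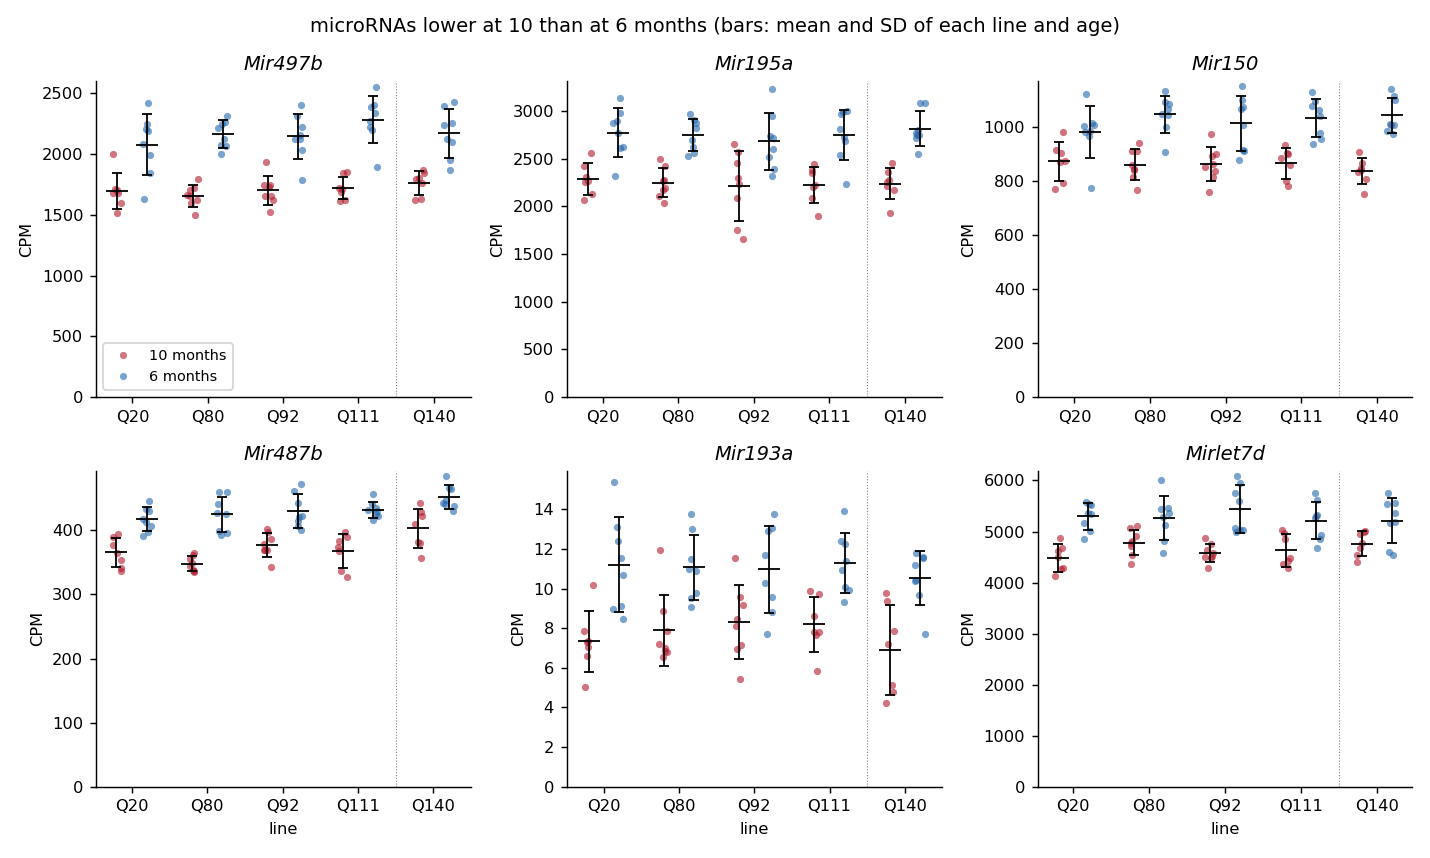
Levels of 6 microRNAs that were lower at 10 months (Mir497b, Mir195a, Mir150, Mir487b, Mir193a and Mirlet7d), in CPM on linear axes, by line (Q20, Q80, Q92, Q111 and the separately tested Q140); red points left are 10-month libraries, blue points right are 6-month libraries, and bars give the mean and SD. The 10-month mean lies below the 6-month mean in every line and panel, with overlapping points. Mir497b, Mir195a and Mir193a are from the largest falls, which were taken only from features with the same sign in Q20, Q80, Q92 and Q111.

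Neuronal microRNAs moved in both directions, 5 of 33 tested higher and 12 lower, with a median near 0; the 51.5% called is close to the 43.1% called over all features. Mir138-2, which limits dendritic spine growth in neurons, measured 1661, 2158 and 2527 CPM (lowest, median, highest) at 10 months, against 2146, 2510.5 and 2771.2 CPM at 6 months (log2 fold change -0.22, SE 0.025, FDR 6.49e-11). 29 of 30 libraries at 10 months lay below the 6-month median. Mir149, in an intron of Gpc1, averaged 653 ± 33.6 CPM at 10 months, against 741 ± 39.6 CPM at 6 months (log2 fold change -0.18, SE 0.021, FDR 2.1e-10), and Mir28a, in an intron of Lpp, 276 ± 16.2 CPM at 10 months, against 309 ± 21.0 CPM at 6 months (log2 fold change -0.16, SE 0.023, FDR 7.44e-08). Mir132 and Mir212, which neuronal activity induces through CREB, were both lower, at -0.13 (FDR 1.11e-05) and -0.13 (FDR 0.000293). The differences of Mir132 and Mir212 were -0.075 (FDR 0.0903) and -0.10 (FDR 0.0748) with the marker scores as covariates. Higher levels were found for Mir153 and Mir384, given above, for Mir330 (0.13, FDR 0.000197), for Mir874 (0.081, FDR 0.00881) and for Mir218-1 in an intron of Slit2 (0.42, FDR 0.0172). Mir218-1 was called in 13 of its 22 alternatives, and against lane L1 alone it had 0.29 (FDR 0.147). Mir9-2, a neuronal microRNA and the fifth most abundant feature, had 40556 ± 2844 CPM at 10 months, against 40519.5 ± 2901 CPM at 6 months (FDR 0.991). The summed neuronal level was 65916 to 78975 CPM (median 73131) at 10 months, against 67467 to 82186 CPM (median 75583) at 6 months; Mir7-2 did not reach the filter.

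The imprinted Dlk1-Dio3 domain on chromosome 12, expressed from the maternal copy in brain, did not move as 1 block: of 40 tested hairpins, 8 were higher and 16 lower, with a median of -0.054. The 60% called in the domain stands beside 43.1% over all features. Of the 24 called, 17 passed against 6-month lane L1 alone, 13 against lane L8 alone and 9 in both cases. Mir487b had more 10-month libraries outside the 6-month range than any other called hairpin of the domain. It measured 327, 367 and 402 CPM (lowest, median, highest) at 10 months, against 392, 425 and 472 CPM at 6 months. 26 of 30 libraries at 10 months lay below every 6-month library (log2 fold change -0.22, SE 0.022, FDR 6.82e-13). Mir667 averaged 129 ± 8.22 CPM at 10 months, against 146 ± 11.4 CPM at 6 months (log2 fold change -0.18, SE 0.027, FDR 7.44e-08). Mir154 differed by -0.15 (FDR 7.75e-05) in the full comparison and by -0.045 (FDR 0.283) against 6-month lane L8 alone. Mir127, the fourth most abundant feature, had 54621 ± 2074 CPM at 10 months, against 52786 ± 2861 CPM at 6 months (log2 fold change 0.051, SE 0.018, FDR 0.0156), and the sign was negative, at -0.012 (FDR 0.675), against lane L1 alone. 9 further hairpins of the domain did not reach the filter.

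Some of the largest falls were in hairpins of low level. Mir296, of the imprinted Gnas region, measured 3.96, 5.78 and 9.16 CPM (lowest, median, highest) at 10 months, against 5.44, 9.30 and 12.1 CPM at 6 months. All 30 libraries at 10 months lay below the 6-month median, and 12 below every 6-month library (log2 fold change -0.56, SE 0.079, FDR 1.98e-08). Mir193a averaged 7.94 ± 1.63 CPM at 10 months, against 11.1 ± 1.88 CPM at 6 months (log2 fold change -0.49, SE 0.071, FDR 5.11e-08), with 15 of 30 libraries below all 6-month libraries. Mir501, in an intron of Clcn5, spread widely, at 16.4, 49.7 and 66.9 CPM (lowest, median, highest) at 10 months, against 28.5, 57.7 and 70.6 CPM at 6 months. 11 of the 30 libraries lay below all 6-month libraries, none of them in lane L6: the means were 26.5, 41.7 and 57.6 CPM in L4, L5 and L6 at 10 months, against 56.7 and 58.3 CPM in L1 and L8 at 6 months. The difference was 0.012 (FDR 0.939) with the L6 libraries alone at 10 months, and -1.13 (FDR 1.67e-07) with those of L4 alone. Over all lanes Mir501 was lower (log2 fold change -0.44, SE 0.11, FDR 0.00125; -0.29, FDR 0.181 with the marker scores). The 5 Clcn5 intron hairpins had 2 lower, Mir501 and Mir188 (-0.19, FDR 0.0018), and 1 higher, Mir532 (0.079, FDR 0.00975). Mir467e and Mir669c, of the cluster in an intron of Sfmbt2, differed by -0.32 (FDR 0.000197) and -0.29 (FDR 0.0128). Mir467e had -0.26 (FDR 0.0671) with the marker scores, and against lane L8 alone Mir669c had -0.28 (FDR 0.0894), Mir188 -0.13 (FDR 0.114) and Mir532 0.047 (FDR 0.292). In the muscle list, Mir206, the skeletal muscle microRNA, averaged 44.6 ± 2.95 CPM at 10 months, against 53.7 ± 6.25 CPM at 6 months (log2 fold change -0.26, SE 0.036, FDR 1.47e-08). It was also called for lane at 6 months, with 57.2 CPM in L1 and 50.1 CPM in L8. Its age difference was -0.38 (FDR 1.82e-11) against lane L1 alone and -0.15 (FDR 0.000799) against lane L8 alone. Mir133b differed by -0.27 (FDR 0.0172) and Mir133a-1 by 0.25 (FDR 0.00903), so that 1 of 6 in the list was higher and 2 were lower. The shares called, 60% of the 5 Clcn5 hairpins and 50% of the 6 in the muscle list, stand beside 43.1% over all features. With the marker scores the sign turned for Mir133b, to 0.010 (FDR 0.974), and for Mir133a-1, to -0.014 (FDR 0.944). The summed muscle level was 234 to 425 CPM (median 304) at 10 months, against 221 to 434 CPM (median 258) at 6 months; Mir133a-2 and Mir208b did not reach the filter.

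**Figure D4:**
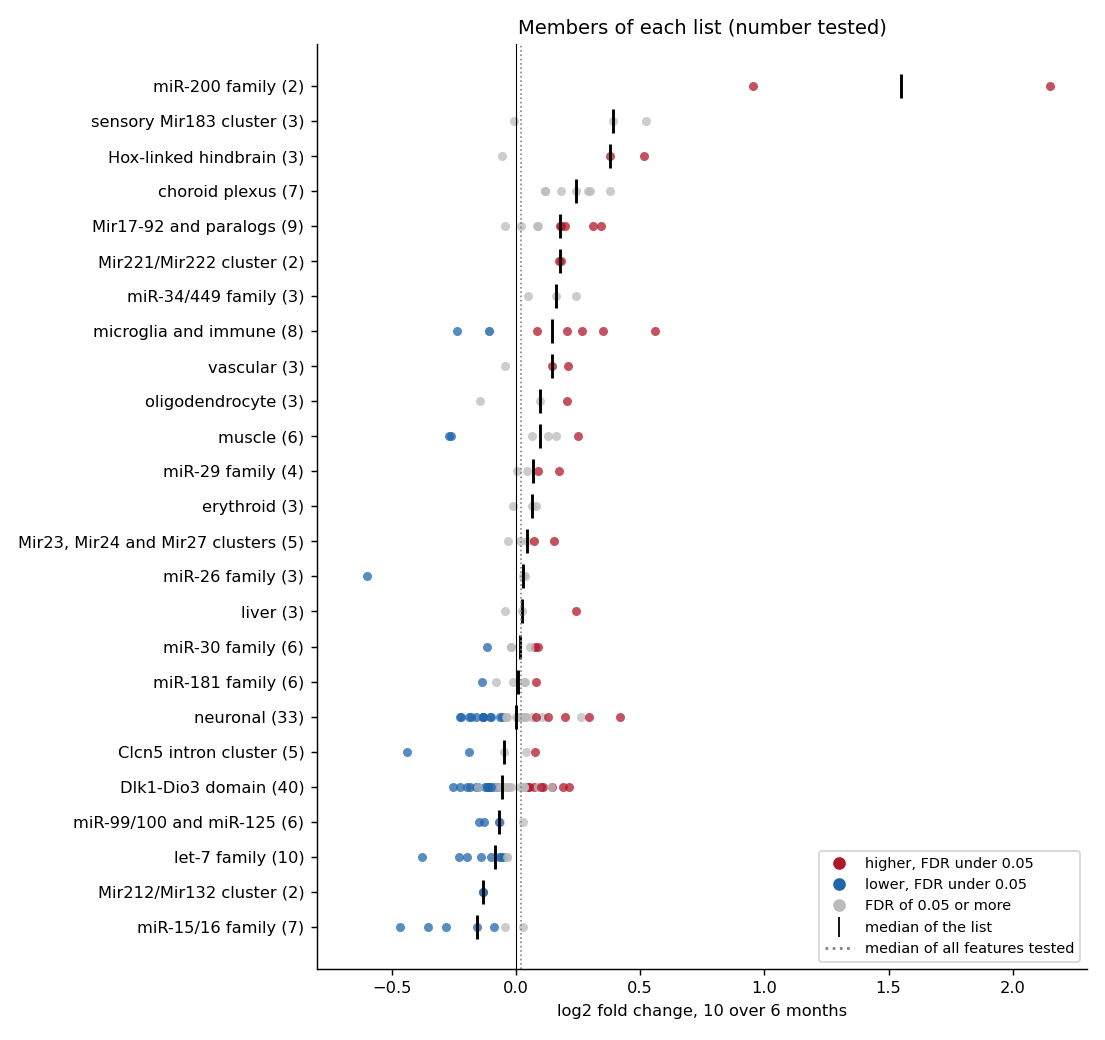
Log2 fold change of each tested member of the lists, 10 over 6 months, with 1 list per row; red points were called higher, blue points lower, grey points were not called, the black tick is the list median and the dotted line the median of all features tested. The let-7 members all lie below 0, the Mir17-92 members lie mostly above it, and the Dlk1-Dio3 and neuronal members spread over both sides.

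For some of the leading features the age difference went with a sequencing lane, and 6 that went with a 6-month lane are given first. Gm25641 lies opposite Mir9-1, which was not analysed here, and had the largest fall (log2 fold change -2.21, SE 0.26, FDR 3.96e-10). It averaged 57.5 ± 11.2, 57.5 ± 9.50 and 60.1 ± 7.27 CPM in lanes L4, L5 and L6 at 10 months, against 511 ± 68.6 CPM in lane L1 and 70.0 ± 9.30 CPM in lane L8 at 6 months. The 6-month libraries of lane L1 thus stood alone, and against lane L8 the difference was -0.28 (FDR 0.00043). Mir26a-1, a copy of miR-26a in an intron of Ctdspl, averaged 2758 CPM over all 10-month libraries, against 5571 ± 525 CPM in lane L1 and 2921 ± 286 CPM in lane L8 at 6 months. Its difference was -0.080 (FDR 0.421) against lane L8, and -0.60 (FDR 7.75e-07) against both lanes. The same held for Mir16-2, at -0.010 (FDR 0.895) against lane L8 and -0.47 (FDR 2.44e-06) against both, and for Mirlet7a-2, at -0.089 (FDR 0.143) and -0.38 (FDR 4.13e-07). Gm24111, which lies opposite Mirlet7f-1, differed by -0.093 (FDR 0.00731) against lane L8 and by -0.35 (FDR 7.63e-09) against both. In the other direction, ENSMUST00000175457 rose by 0.70 (FDR 1.87e-05), but averaged 26.7 ± 6.90 CPM in lane L1 and 58.8 ± 14.1 CPM in lane L8 at 6 months, and differed from lane L8 by 0.23 (FDR 0.119). For others the level went with a 10-month lane. Besides Mir501, Mir125a, Mir99b and Mir338, given above, Gm23388 averaged 5.31, 10.99 and 5.82 CPM in L4, L5 and L6 at 10 months, against 3.27 and 5.32 CPM in L1 and L8 at 6 months, and differed between the 10-month lanes (FDR 0.0323). Its age difference was 0.23 (FDR 0.556) with L4 alone, 1.29 (FDR 2.38e-06) with L5 alone and 0.56 (FDR 0.0736) with L6 alone. Mir153 and Mir384 differed between the 10-month lanes too (FDR 0.0204 and 0.0407) but passed for age with each of them, as did Mir146, Mir142b, Mir92-1, Mir497b, Mir195a, Mir487b and Mirlet7d. Of 68 named features called for age, 23 were no longer called with the 6 libraries of L4 alone at 10 months, 5 with the 16 of L5 alone and 22 with the 8 of L6 alone. Mir10b, Mir222, Mir206, Mir296, Mir25 and Mir30a were among the 23, and Mir29a, Mir132, Mir212, Mir342, Mir141, Mir143 and Mir194-1 among the 22. The authors' separate RPKM table (reads per kilobase of feature, scaled to library size) did not carry this lane pattern for Gm25641, which averaged 247069 RPKM at 10 months against 245684 RPKM in lane L1 and 248903 RPKM in lane L8 at 6 months. Mir26a-1 had 1198840 RPKM at 10 months and 1184140 RPKM at 6 months in the same table. ENSMUST00000175457 kept the lane difference there, with 698 RPKM at 10 months, against 297 RPKM in L1 and 610 RPKM in L8 at 6 months. Mir16-2 and Mirlet7a-2 had 85029 and 94045 RPKM at 10 months, below both 6-month lanes, with 95896 and 105935 RPKM in L1 and 91201 and 98572 RPKM in L8. Gm24111 had 141912 RPKM at 10 months, between 151595 RPKM in L1 and 140709 RPKM in L8. The 2 measures were not on 1 scale across features. At 10 months Mir206 had 396 RPKM and 44.6 CPM, whereas Gm25641 had 247069 RPKM and 57.5 CPM (lane L5). Whether the RPKM values rest on the same reads as the counts was not tested, nor was the cause of the lane pattern.

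**Figure D5:**
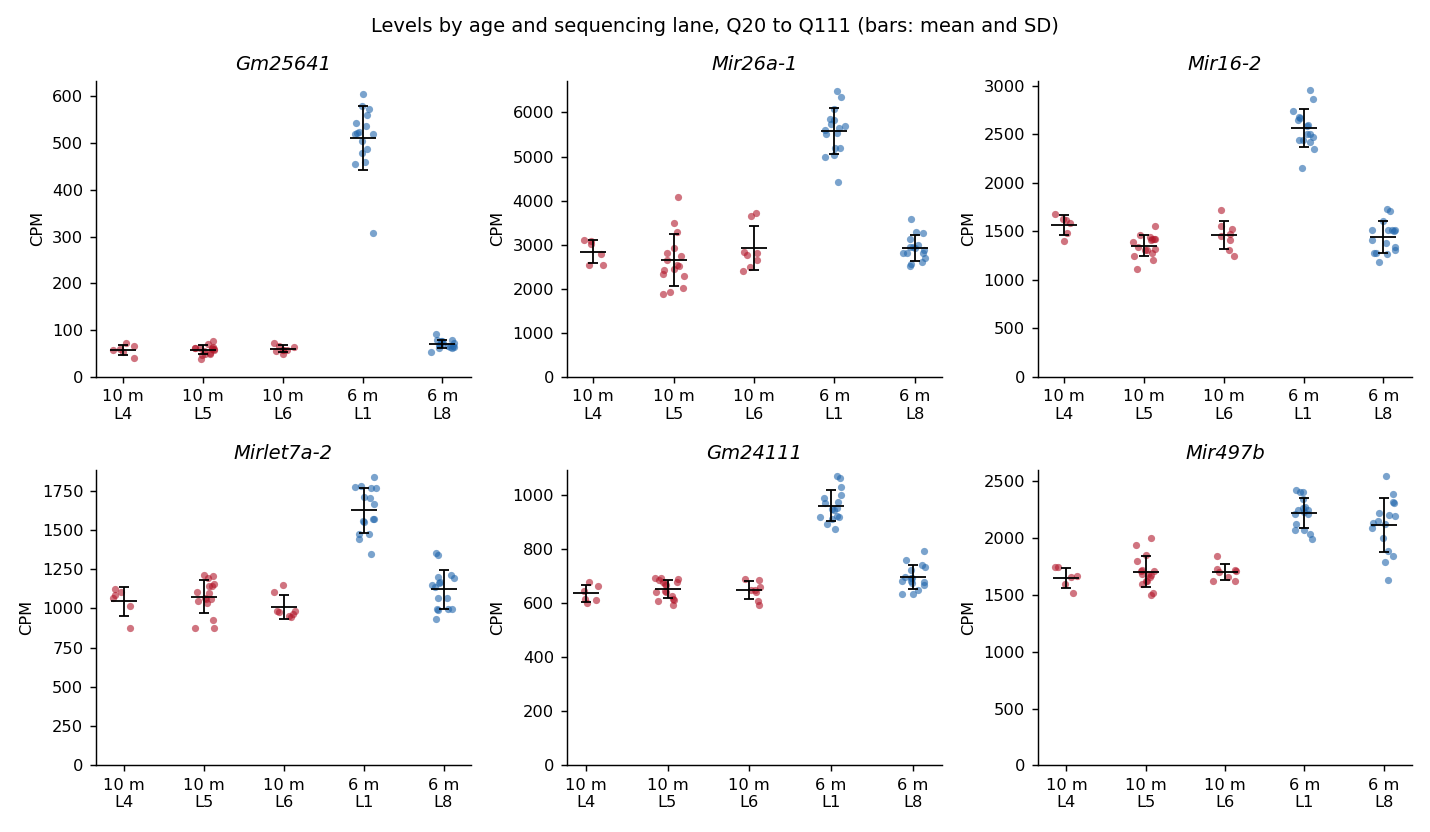
Levels in CPM (linear axes) of 6 features by lane: L4, L5 and L6 at 10 months on the left in red, L1 and L8 at 6 months on the right in blue; points are libraries and bars the mean and SD. For Gm25641, Mir26a-1, Mir16-2 and Gm24111 the L1 libraries lie apart and the L8 libraries lie near the 10-month level. For Mirlet7a-2 the L8 libraries also lie near it, but the lowest L1 library (1347 CPM) lies below the highest L8 library (1353 CPM). For Mir497b the means of both 6-month lanes lie above those of the 10-month lanes.

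Among features with a mean of at least 5 CPM, the largest called rises were in features known only by a provisional gene name or a transcript ID. Gm23388, in an intron of Zfp791, measured 2.98, 7.04 and 33.7 CPM (lowest, median, highest) at 10 months, against 0.786, 4.08 and 7.93 CPM at 6 months (log2 fold change 0.93, SE 0.19, FDR 3.72e-05). 9 of its 30 libraries at 10 months lay above all 6-month libraries, and against lane L8 alone the difference was 0.49 (FDR 0.0815). ENSMUST00000175748 measured 3.48, 6.84 and 14.02 CPM (lowest, median, highest) at 10 months, against 1.58, 4.20 and 8.16 CPM at 6 months (log2 fold change 0.77, SE 0.12, FDR 5.08e-07), and the difference was 0.56 (FDR 0.00406) against lane L8. The annotation used gives no role for them. By contrast, the most abundant features had small fold changes: Mir26a-2 (16.4% of counts) differed by 0.028 (FDR 0.239), Mir181a-2 (13.7%) by -0.012 (FDR 0.688) and Mir30a (5.73%) by 0.077 (FDR 0.000343). Of the remaining lists, the miR-26 family had 1 of 3 called (Mir26a-1, lower). The miR-181 family had 1 higher (Mir181d) and 1 lower (Mir181a-1) of 6, neither of which passed against lane L8 alone. The miR-34 and miR-449 family and the erythroid list each had 0 of 3, with 0 at an unadjusted p under 0.05 and 0 by DESeq2. The liver list had 1 of 3, Mir194-1, which was higher by 0.24 (FDR 1.27e-06). The miR-26, miR-181 and liver shares, 33.3% each, are near the 43.1% called over all features. Mir451a, of red cells, had 219 ± 26.2 CPM at 10 months, against 221 ± 20.8 CPM at 6 months, and the summed erythroid level was 16197 to 23979 CPM (median 20514) at 10 months, against 16288 to 21613 CPM (median 19246) at 6 months. The summed level of the miR-34 and miR-449 family, a marker of ciliated cells, was 553 to 1759 CPM (median 978) at 10 months, against 477 to 1636 CPM (median 914) at 6 months, and the summed liver level 3659 to 4789.9 CPM (median 4109) at 10 months, against 3463 to 4424 CPM (median 4032) at 6 months; Mir122, the defining liver microRNA, was near 1 CPM and below the filter.

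The question of whether the age difference depended on the knock-in line was put to each line and then to the interaction. Fitted within the lines, 54 features (14.6%) were called in Q20, 88 (23.8%) in Q80, 66 (17.9%) in Q92 and 67 (18.2%) in Q111. For Mir146 the log2 fold changes were 0.56 in Q20, 0.53 in Q80, 0.61 in Q92 and 0.54 in Q111, and for Mir142b 0.35 in Q20, 0.26 in Q80, 0.36 in Q92 and 0.45 in Q111. Mir92-1 had 0.28 in Q20, 0.31 in Q80, 0.28 in Q92 and 0.37 in Q111. Among the falls, Mir497b had -0.29 in Q20, -0.40 in Q80, -0.33 in Q92 and -0.39 in Q111, and Mir487b -0.19 in Q20, -0.30 in Q80, -0.18 in Q92 and -0.22 in Q111. Of these, Mir146, Mir142b, Mir92-1 and Mir497b are from the largest rises and falls. Those were taken only from features with the same sign in all 4 lines. The 4 lines had the same sign for 139 of the 159 called features, against 178 of all 369, counts that rest on the same libraries as the calls. The age-by-line interaction, tested over 3 terms, gave 0 calls in edgeR's quasi-likelihood test, with 39 features at an unadjusted p under 0.05, and 0 in DESeq2. The age-by-CAG-length term gave 0 calls and 18 features at an unadjusted p under 0.05, and the age-by-sex term 0 calls and 9 such features; DESeq2 gave 0 for both. The number of 6-month libraries in lanes L1 and L8 was 6 and 2 in Q80, 2 and 6 in Q92, and 4 and 4 in Q20 and in Q111. For Gm25641, whose level went with the lane, the line values were -2.39 in Q20, -2.72 in Q80, -1.57 in Q92 and -2.16 in Q111.

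Q140 mice of the same library series, 7 at 10 months and 8 at 6 months, shared no library with these fits and were tested apart, in lanes L4 and L5 at 10 months and L1, L2 and L8 at 6 months, so that lane and age cannot be told apart there either. 34 features (9.21%) were called, 19 higher (5.15%) and 15 lower (4.07%), and 33 of the 34 were among the 159 and in the same direction. The sign of the Q140 difference matched that of the 4 lines for 144 of the 159 called features (90.6%), for 131 of the 210 not called (62.4%) and for 275 of all 369 (74.5%). Mir497b measured 1759 ± 97.9 CPM at 10 months and 2168 ± 199 CPM at 6 months in Q140, an edgeR log2 fold change of -0.30 (FDR 0.0082). Mir142b, Mir92-1, Mir146 and Mir10a were higher by 0.44 (FDR 0.0082), 0.32 (FDR 0.0138), 0.45 (FDR 0.0386) and 0.34 (FDR 0.0263), and Mir195a, Mir150 and Mir138-2 lower, at -0.33 (FDR 0.00252), -0.31 (FDR 0.00252) and -0.18 (FDR 0.0263). Mir429 and Mir141 were also higher, by 3.06 (FDR 0.0184) and 2.02 (FDR 0.0207). Other leading features did not pass in Q140: Mir301 had 0.28 (FDR 0.0682), Mir153 0.23 (FDR 0.132), Mir487b -0.16 (FDR 0.0682) and Mir193a -0.62 (FDR 0.0506). Of all 369 features, 175 had a positive fold change in Q140, with a median of -0.011. All 10 let-7 members had negative fold changes in Q140, and the miR-15/16 median was -0.17 there. Other lists went the other way: the choroid plexus list had 2 of 7 positive in Q140 (median -0.60), against 7 of 7 in the 4 lines (median 0.24), and the miR-34 and miR-449 family 0 of 3, against 3 of 3. The Mir183 cluster had 0 of 3 positive in Q140, against 2 of 3 in the 4 lines, and the miR-99/100 and miR-125 families 4 of 6 (median 0.028), against 1 of 6 (median -0.067). Mir501 had 0.024 (FDR 0.97) and ENSMUST00000175748 0.011 (FDR 0.984), against called differences in the 4 lines; the difference between Q140 and the lines was not tested.

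Levels at 2 months, from 26 libraries of the same lines that passed the connectivity threshold, are set beside the older ages as a description. A comparison with them would share the 6-month libraries. The 2-month libraries carry the lane labels L1 and L2. The label L1 recurs with the same library tags at 2 and 6 months, so it cannot be taken as 1 lane shared by both ages. Mir142b averaged 149, 157 and 201 CPM at 2, 6 and 10 months, and Mir10b 694, 1032 and 1468 CPM at 2, 6 and 10 months. Mir126a stood at 5329, 5635 and 6505 CPM at 2, 6 and 10 months. For these the 10-month level was the highest of the 3. Mir146, Mir92-1 and Mir301 were lowest at 6 months, with 78.0, 67.7 and 99.7 CPM at 2, 6 and 10 months for Mir146, 1282, 1066 and 1322 CPM at 2, 6 and 10 months for Mir92-1 and 467, 420.4 and 529 CPM at 2, 6 and 10 months for Mir301. Mir497b and Mirlet7d were highest at 6 months, with 1780.4, 2166.3 and 1692 CPM at 2, 6 and 10 months for Mir497b and 4465, 5302 and 4622 CPM at 2, 6 and 10 months for Mirlet7d. Mir150 was highest at 2 months (1074, 1018 and 864 CPM at 2, 6 and 10 months), and so was Mir501 (196, 57.5 and 42.9 CPM at 2, 6 and 10 months). Mir99b and Mir125a also had their highest level at 2 months: 28294, 11226 and 10134 CPM at 2, 6 and 10 months for Mir99b and 71097, 36472 and 33403 CPM at 2, 6 and 10 months for Mir125a. Mir29a averaged 9313, 12917 and 13728 CPM at 2, 6 and 10 months.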

How the data were processed

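Cerebellar small RNA was sequenced from heterozygous Htt knock-in mice. Per the study's methods, the authors prepared RNA with a column kit, made strand-specific single-end reads, aligned them to mm10 with STAR and counted them with HTSeq; CASAVA 1.8.2 is named in the processing notes of the submitters. The strand setting of the counting is not given in the sources used here. The deposited table holds estimated counts per feature, of which 49.5% of the values above 0 had a fraction, and they were rounded to whole numbers. The deposited RPKM table of the authors comes from another quantification of the same libraries and was used only in alternatives. Every per-sample column was matched to a sample (0 left unmatched).

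Features were kept by filterByExpr with age as group, scaled by TMM and tested with edgeR 4.0.16 (R 4.3.3; quasi-likelihood F test, 2-sided, line, sex and age as terms, Benjamini-Hochberg adjustment over the 369 features tested). Levels were computed with 1 common TMM scaling over the Q20 to Q140 libraries of all ages. Coordinates and host genes are those of GENCODE vM21 (GRCm38), and mature sequences those of RefSeq. Marker sums and list counts are descriptions and were not tested as sets. The fits were tested on simulated data with known fold changes before use. Among 217 pairs of libraries of the same line and age, chi-square divided by its degrees of freedom was at least 14.1, so none was counted as a duplicate. 103 of the 369 features, 49 of them among the 159 called, share a run of at least 18 bases with another feature and could exchange reads. The p-values measure the spread between these mice, of which litters gave at most 1 per sex and genotype.

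Named were the 12 largest rises and the 12 largest falls among the features called, with a mean of at least 5 CPM and the same sign in all 4 lines (131 features), up to 4 members of each list, called ones first, and the 5 most abundant features. Other list or seed-group members were named after their values were seen, to complete a count. The members and lists were chosen with earlier results of these data known. The alternatives were DESeq2 1.42.0, other scalings, filters and covariates, limma 3.58.1 on log2(RPKM + 1) and log2(RPKM + 0.1), subsets of lanes and lines, the Q140 libraries added and a replicate block.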

Additional observations from a re-analysis of the deposited data

Results flagged for a closer look

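The level of each of 24 features was examined in 10 groups of 1 line and 1 age, with 7 or 8 libraries per group, for a library whose gap to the nearest other exceeded Dixon's 95% critical value for its group's range. Of 240 groups, 16 had such a library, and chance gives about 1 in 20. Gm23388 stood apart at 33.7 CPM in Q80 male 3 and at 20.0 CPM in Q111 male 3, both at 10 months. ENSMUST00000175748 reached 14.02 CPM in Q80 female 1 at 10 months, and ENSMUST00000175457 81.8 CPM in Q111 female 4 at 6 months. Mir146 was highest at 10 months in Q80 female 4, at 163 CPM, and in Q140 female 1, at 132 CPM. The level of Mir92-1 in the same Q140 female was 1029.9 CPM at 10 months, below the other libraries of its group. Mir142b stood apart at 151 CPM in Q20 female 5 at 10 months, and Mir497b at 1994.9 CPM in Q20 female 1 at 10 months. Mir10a measured 1041 CPM in Q20 female 4 at 10 months and 908 CPM in Q20 female 2 at 6 months. Mir193a measured 11.9 CPM in Q80 female 3 at 10 months. Mir501 was low at 23.0 CPM in Q111 male 3 at 10 months, at 28.5 CPM in Q92 female 4 at 6 months and at 24.8 CPM in Q140 male 1 at 6 months. Mir218-1 measured 106 CPM in Q92 female 2 at 6 months.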

How the results depend on the processing

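The count of 159 calls stayed between 117 and 178 in the count-based alternatives on the tested or a stricter feature set, except with the marker scores as covariates (101) and in 2 of the alternatives chosen after seeing the data, with lane L4 alone (97) or lane L6 alone (102) at 10 months. Without the Q80 male 3 library at 10 months, also chosen after seeing the data, it was 162. In the RPKM table limma called 223 of 1036 features, 83 higher and 140 lower, with a pseudocount of 1, and 219 (84 and 135) with 0.1. DESeq2 called 63 features in Q140, against 34. The replicate numbers did not pair the samples: over 29 pairs of libraries with the same line, sex and number, the correlation of deviations ran from -0.524 to 0.582 (median -0.0715, 6 above 0.1). With the replicate block, 162 features were called (71 higher, 91 lower), 151 of them among the 159. Among the named features, signs turned under limma on log2(RPKM + 1) and log2(RPKM + 0.1) for Mir26a-1 (0.019 and 0.019), Mir219a-1 (0.27 and 0.27), Mir133b (0.030 and 0.030) and Mir194-2 (0.10 and 0.10), under the marker scores for Mir141 (-0.40), Mir133a-1 (-0.014) and Mir133b (0.010), against lane L1 alone for Mir127 (-0.012), with lane L6 alone at 10 months for Mir501 (0.012), Mir99b (0.035) and Mir125a (0.019), and with lane L4 alone for Mir532 (-0.054). Over all 159, 4 signs turned against lane L1 alone and 4 against lane L8 alone. The cause was not tested. The interaction terms gave 0 calls under all alternatives run.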

Other observations

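Further hairpins moved that belong to no list used here, named after their values were seen. Mir148b and Mir148a, which share the seed CAGUGCA, were both higher at 10 months. Mir152, the other tested hairpin with this seed, was not called (log2 fold change 0.0235). Mir148b averaged 548 ± 45.2 CPM at 10 months, against 477 ± 35.3 CPM at 6 months (edgeR log2 fold change 0.20, FDR 2.92e-08), and Mir148a 472 ± 60.7 CPM at 10 months, against 410.5 ± 47.0 CPM at 6 months (0.20, FDR 1.82e-05). Mir484 averaged 1689 ± 125 CPM at 10 months and 1969.7 ± 165 CPM at 6 months (-0.22, FDR 1.01e-09). Mir674 averaged 183 ± 16.6 CPM at 10 months and 209 ± 12.04 CPM at 6 months (-0.19, FDR 8.72e-08), and Mir872 609 ± 25.6 CPM at 10 months and 652 ± 26.4 CPM at 6 months (-0.098, FDR 8.92e-07). Levels of Mir148b, Mir148a, Mir484, Mir674 and Mir872 all overlapped between the ages.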
